A study of Mus musculus with 32 samples.

Results

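The Mx1 libraries high in heart RNA are 6 of the 12 Mx1 RNA-seq libraries of this series, which holds 24 RNA-seq libraries among its 32 samples. They were chosen by the summed counts of Ttn and Myh6: a library with over 2% of its counts in that pair was called high, and the other 6 Mx1 libraries were called low. Ttn encodes titin, the spring protein that spans the contractile unit of striated muscle, and Myh6 encodes the fast myosin heavy chain of the heart. All 12 libraries are RNA of cells sorted from mouse marrow (C57BL/6, Mx1-CRE, labelled 10-weeks, 2 months after pIpC, the double-stranded RNA that switches the Mx1 promoter on). The sort gates were Lin-, cKit+, Sca1+ with CD150-, CD48- for multipotent progenitors (MPP) and with CD150+, CD48- for hematopoietic stem cells (HSC). The genotypes were Mx1-Jak2V617F - Jarid2KO (here the double mutant), Mx1-Jak2V617F, and control, labelled wild-type, with 2 libraries for each cell type and genotype. Jak2V617F is the activating kinase mutation of myeloproliferative disease, and Jarid2 is a cofactor of the Polycomb complex PRC2. Each library comes from pooled male and female mice, with pool size given in 2 ways and age as 8 weeks in the shared protocol text. The Mx1 promoter answers to interferon in many cells besides blood, so the alleles need not be limited to marrow cells. The series' design text names a Jarid2-KO group in the Mx1 cohort where the sample labels have Jak2V617F, and the sample labels were followed.

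Heart muscle cells are filled with sarcomeres, the arrays of actin and myosin that shorten at each beat, and they release and take up calcium through the sarcoplasmic reticulum to time that beat. They live mainly on fatty acids burned in abundant mitochondria, and they lie among fibroblasts, capillary endothelium, pericytes and smooth muscle. Blood stem cells and progenitors build no sarcomeres, and they are known by transcription factors such as Meis1 and by receptors such as Kit.

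Depth was 9273253 to 16929392 counts per high library and 7852483 to 20724168 per low library. In the high libraries 15845 to 16936 genes had at least 10 counts, against 13962 to 16391 genes in the low libraries. Ttn plus Myh6 took 8.59e-05% to 0.000759% of the counts in the 12 libraries of the other cohort (Vav-CRE, 8-weeks), which thus have almost none of it. The labelled cell types were checked on the genes of the sort. Slamf1, which encodes CD150, had 0.196 to 124 CPM (a gene's counts scaled to the total of its library) in the Mx1 HSC libraries, against 57.4 to 95.5 CPM in the Vav HSC libraries. Among the Mx1 HSC libraries it was above 13 CPM in none but the double mutant ones, with 30.8 and 124 CPM. Ly6a, which encodes Sca1, had 44.3 to 63.4 CPM in the 4 high control and Jak2V617F libraries and 6.71 to 13.3 CPM in the 4 low ones, and 78.2 to 190.1 CPM in the double mutant libraries. Cd48, absent from the gate, had 13.9 to 133 CPM in the Mx1 HSC libraries, against 6.46 to 29.3 CPM in the Vav HSC libraries. Kit had 150.02 to 369.5 CPM in the high and 390.1 to 1121 CPM in the low libraries. Jarid2, the targeted gene, had 52.6 to 169 CPM in the double mutant, 51.5 to 69.1 CPM in the Jak2V617F and 45.6 to 68.03 CPM in the control libraries; gene counts do not single out the deleted part and so do not check the deletion.

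The high set held the control MPP replicate 2 with 5.03% of its counts in Ttn plus Myh6, the double mutant MPP replicate 1 with 4.61%, the Jak2V617F MPP replicate 1 with 4.35%, the double mutant HSC replicate 1 with 4.17%, the Jak2V617F MPP replicate 2 with 3.96% and the Jak2V617F HSC replicate 2 with 3.30%. The low set held the control HSC replicate 2 with 0.652%, the double mutant MPP replicate 2 with 0.609%, the control HSC replicate 1 with 0.538%, the Jak2V617F HSC replicate 1 with 0.445%, the control MPP replicate 1 with 0.329% and the double mutant HSC replicate 2 with 0.284%. No library lay between 3.30% and 0.652%, on either side of the 2% line. The mean was 4.23% ± 0.589 in the high and 0.476% ± 0.150 in the low libraries (SD, n = 6 each), 8.89-fold apart, or 3.15 on the log2 scale. These shares chose the sets and are given as a description. All 12 Mx1 libraries had heart counts far above the Vav libraries, the low set included.

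**Figure D1:**
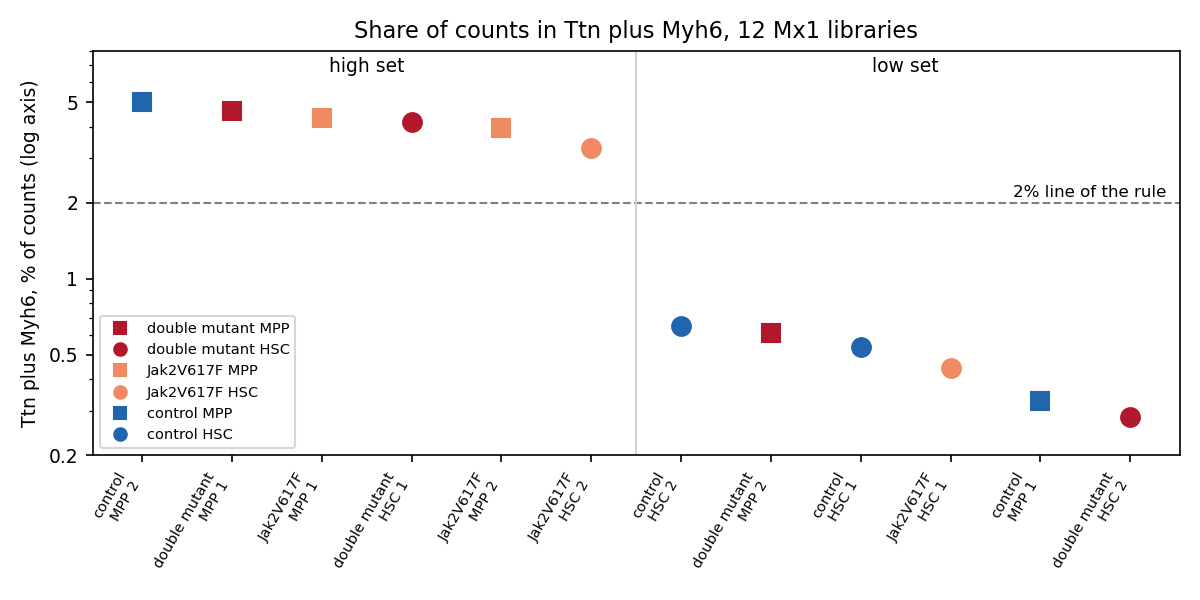
Percent of counts in Ttn plus Myh6 in the 12 Mx1 libraries (log axis), with the 6 high libraries on the left and the 6 low libraries on the right; colour gives the genotype, squares are MPP and circles HSC, and the dashed line is the 2% line of the rule. The high libraries lie between 3.30% and 5.03% and the low libraries between 0.284% and 0.652%, with both cell types and all 3 genotypes in each set.

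Each set held libraries of both cell types and all 3 genotypes. High libraries were 4 of 6 MPP and 2 of 6 HSC libraries (two-sided Fisher's exact test, p = 0.567, n = 6 each). They were 2 of 4 double mutant, 3 of 4 Jak2V617F and 1 of 4 control libraries (Fisher's exact test, p = 0.766), and 3 of 6 libraries of each replicate number (Fisher's exact test, p = 1). Adjusted over these 3 tests by the Benjamini-Hochberg method, each p was 1. In 4 of the 6 label groups, 1 library was high and the other low: the double mutant MPP and HSC, the Jak2V617F HSC and the control MPP. Both Jak2V617F MPP libraries were high and both control HSC libraries were low.

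Sarcomere genes were higher together in the high libraries. Of the 30 listed, all 30 passed the filter on low counts (edgeR's, with a count minimum of 10), and all 30 were higher in every high library than in any low library, where 16.5% of all 19616 genes tested were higher without overlap of the sets. Because 2 of these genes chose the sets from the same counts, this count and those of the other lists are descriptions, with no test. The median log2 ratio of the list was 3.15 (mean CPM plus 0.5, high over low), against 0.10 for all genes. As the lowest, median and highest library of each set, Ttn had 21421, 27660.4 and 32851 CPM in the high libraries, against 1845, 3187 and 4257 CPM in the low libraries. Myh6 had 11582, 14909 and 17422 CPM in the high libraries, against 991, 1727 and 2266 CPM in the low libraries. Counts of Ttn per count of Myh6 stayed between 1.84 and 1.89 in all 12 libraries. Actc1, the actin of heart muscle, had 3175, 4284 and 4746 CPM in the high libraries, against 288, 460.3 and 652 CPM in the low libraries. Tpm1, a tropomyosin that gates the actin filament, had 4033, 5128 and 6041 CPM in the high libraries, against 436, 627 and 829 CPM in the low libraries. Mybpc3, the cardiac myosin-binding protein C, had 3016, 3829 and 4468 CPM in the high libraries, against 248, 432 and 600.4 CPM in the low libraries. The sets of each of these genes are far apart, and the same libraries are high each time. Per length, the median level of Actc1 was 2648 RPKM (CPM per kilobase) in the high and 284 RPKM in the low libraries, that of Myh6 2327 and 269.5 RPKM, and that of Ttn, a very long transcript, 237 and 27.3 RPKM.

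The promoters of 4 of these genes, and of Mpo, the myeloperoxidase of granulocyte progenitors, are shown because 2 of them chose the sets and the others are a heart gene or a blood gene described here. Each runs from 250 bases before to 50 bases after the RefSeq start (build GRCm38.p6), 5′ to 3′ on the gene's strand. Capitals mark a match to TATAAA on either strand, to the CArG box that binds serum response factor, or to the MEF2 site, the last 2 searched by their usual consensus. The windows are chr2:76982498-76982797 (minus strand), chr14:54966558-54966857 (minus strand), chr2:114052826-114053125 (minus strand), chr2:91117894-91118193 (plus strand) and chr11:87793534-87793833 (plus strand).
Ttn: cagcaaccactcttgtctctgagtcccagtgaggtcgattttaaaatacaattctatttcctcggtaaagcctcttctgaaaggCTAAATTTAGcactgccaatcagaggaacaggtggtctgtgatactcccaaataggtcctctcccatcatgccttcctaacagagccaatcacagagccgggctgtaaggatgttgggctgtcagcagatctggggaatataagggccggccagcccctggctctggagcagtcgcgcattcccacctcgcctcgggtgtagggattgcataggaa
Myh6: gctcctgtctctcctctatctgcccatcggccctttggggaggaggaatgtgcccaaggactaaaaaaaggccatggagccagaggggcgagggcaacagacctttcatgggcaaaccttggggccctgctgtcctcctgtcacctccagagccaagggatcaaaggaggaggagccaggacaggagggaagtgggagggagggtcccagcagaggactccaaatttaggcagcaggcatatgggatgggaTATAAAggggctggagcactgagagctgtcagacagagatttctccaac
Actc1: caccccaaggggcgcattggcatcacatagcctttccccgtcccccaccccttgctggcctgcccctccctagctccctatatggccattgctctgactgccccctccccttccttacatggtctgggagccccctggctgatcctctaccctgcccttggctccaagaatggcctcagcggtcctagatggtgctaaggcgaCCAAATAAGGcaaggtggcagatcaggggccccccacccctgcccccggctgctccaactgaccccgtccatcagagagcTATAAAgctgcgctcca
Mybpc3: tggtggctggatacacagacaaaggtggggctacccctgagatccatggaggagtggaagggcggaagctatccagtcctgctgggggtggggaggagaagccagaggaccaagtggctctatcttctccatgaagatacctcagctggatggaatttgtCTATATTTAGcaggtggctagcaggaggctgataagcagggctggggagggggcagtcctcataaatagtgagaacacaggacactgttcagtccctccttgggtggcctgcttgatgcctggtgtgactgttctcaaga
Mpo: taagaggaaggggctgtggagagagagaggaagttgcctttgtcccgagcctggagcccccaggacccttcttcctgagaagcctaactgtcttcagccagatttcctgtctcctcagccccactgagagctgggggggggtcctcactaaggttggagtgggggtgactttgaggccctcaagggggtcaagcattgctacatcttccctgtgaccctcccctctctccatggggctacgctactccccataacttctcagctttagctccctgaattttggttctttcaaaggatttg
Ttn has a MEF2 match that begins at base -166 from the start, and Mybpc3 has a MEF2 match at base -90. Actc1 has a CArG match at base -47 and a TATAAA match at base 34, and Myh6 has a TATAAA match at base 2. These bases are counted from the RefSeq start used. In the gene coordinates of the deposited counts, Myh6 reaches to 54966927 and Actc1 to 114053548, beyond their windows. Which start is used in these cells was not tested, so the bases are not distances from a known working start. The Mpo window has no match to any of the 3, which says only that these letters are not in this window. Of the 30 sarcomere genes, 24 matched a RefSeq promoter by symbol, with 34 windows in all. A CArG match was in 6 of these 34 windows (17.6%), against 535 of all 32851 windows of the same length (1.63%). A MEF2 match was in 6 of 34 (17.6%) against 1047 of all (3.19%), and a TATAAA match in 3 of 34 (8.82%) against 4473 of all (13.6%). In 226 of all windows a TATAAA match overlapped a MEF2 match. These matches describe the letters of the windows and were not tested.

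Genes that move calcium and carry the heart's electrical signal were higher with the sarcomere genes. All 25 listed passed the filter and all 25 were higher without overlap, with a median log2 ratio of 3.02. Atp2a2, the calcium pump of the sarcoplasmic reticulum, had 5732, 7649 and 8897 CPM in the high libraries, against 586, 949 and 1225 CPM in the low libraries. Pln, phospholamban, which restrains that pump, had 2852, 3646 and 4483 CPM in the high libraries, against 247, 429 and 581 CPM in the low libraries. Ryr2, the calcium release channel, had 1561, 2001 and 2431 CPM in the high libraries, against 142, 234 and 333 CPM in the low libraries. Fhl2, a LIM protein of heart muscle, had 882, 1148 and 1249 CPM in the high libraries, against 69.4, 124 and 176 CPM in the low libraries. The sets overlap for none of these 4, and their log2 ratios, 3.02, 3.16, 3.12 and 3.18, lie close to the 3.15 of the heart share itself. For every 1000 counts of Ttn plus Myh6, Pln had 84.5 to 89.8 in the high and 85.3 to 89.1 in the low libraries.

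Of 18 heart transcription factors, 17 were tested and 16 were higher without overlap, with a median log2 ratio of 2.83; Hand1 had no count in any of the 12. Smyd1, a methyltransferase needed for the heart's sarcomeres, had 280.2, 389 and 473 CPM in the high libraries, against 28.9, 48.5 and 55.1 CPM in the low libraries. Esrra, a nuclear receptor that drives mitochondrial genes, had 122, 158 and 192 CPM in the high libraries, against 11.6, 18.8 and 25.3 CPM in the low libraries. Mef2a had 119, 156 and 172 CPM in the high libraries, against 31.7, 41.1 and 52.8 CPM in the low libraries. The exception was Mef2c, which blood cells use as well: it had 127, 154 and 286 CPM in the high libraries, against 188, 238 and 811 CPM in the low libraries, and the sets overlap. A further 3 factors of heart formation showed no overlap. Gata4 had 67.5 to 90.2 CPM in the high and 4.98 to 12.99 CPM in the low libraries. Nkx2-5 had 36.8 to 61.5 CPM in the high and 2.55 to 9.93 CPM in the low libraries. Tbx20 had 115 to 197 CPM in the high and 9.08 to 26.1 CPM in the low libraries.

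Markers of the heart's chambers were not alike. Of 8 ventricular genes 7 were tested and 6 were higher without overlap (median log2 ratio 2.95). Myl2, the regulatory light chain of the ventricle, had 2430.4, 3210.4 and 3812 CPM in the high libraries, against 211, 362 and 499 CPM in the low libraries, and Myl3, its essential light chain, had 2286, 2959 and 3563 CPM in the high libraries, against 208, 348 and 454 CPM in the low libraries. Of 12 atrial genes 9 were tested and 6 were higher without overlap (median 2.44). The atrial median was 1.402 over all 12 genes with no filter and 1.725 with a pseudocount of 2. Myl7 and Sln, the light chain and the calcium pump regulator of the atrium, were at or near 0 in every library, with at most 1.11 and 0 CPM in the high and 0.127 and 0.417 CPM in the low libraries. Nppa, the atrial natriuretic peptide, had 15.5, 28.2 and 41.3 CPM in the high libraries, against 0.443, 2.20 and 4.84 CPM in the low libraries. Pam, the enzyme that amidates peptides in the atrium and in many other cells, had 452, 666 and 775 CPM in the high libraries, against 74.4, 99.6 and 117 CPM in the low libraries. Genes that heart muscle raises under load were also higher: 7 of the 7 tested of 8 listed, with a median of 3.16. Ankrd1, a titin-bound stress protein, had 497, 572 and 721 CPM in the high libraries, against 36.8, 65.4 and 93.8 CPM in the low libraries. Xirp2, an actin-binding protein of the intercalated disc, had 679, 899 and 1037 CPM in the high libraries, against 61.9, 103 and 139 CPM in the low libraries. Myh7, the slow myosin heavy chain, had 211, 259 and 299.8 CPM in the high libraries, against 15.8, 29.6 and 36.9 CPM in the low libraries. Acta1, the skeletal actin, had 236, 287 and 383 CPM in the high libraries, against 19.2, 39.6 and 58.8 CPM in the low libraries.

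Heart metabolism genes were higher to unequal degrees, with list medians of 3.00 for energy genes of muscle, 1.57 for fatty acid genes and 0.99 for the citrate cycle and respiratory chain. All 19 muscle energy genes were higher without overlap, with a median log2 ratio of 3.00. Mb, myoglobin, which stores oxygen, had 5079, 6425 and 7579.6 CPM in the high libraries, against 437, 733 and 982 CPM in the low libraries. Ckmt2, the mitochondrial creatine kinase of muscle, had 1075, 1347 and 1653 CPM in the high libraries, against 88.3, 153 and 214 CPM in the low libraries. Both have log2 ratios of 3.16 and 3.18, and both are at or near 0 in the Vav libraries, with at most 0.0367 and 0.313 CPM. Slc25a4, the ADP/ATP carrier of heart and muscle, had 2798, 3542 and 3944 CPM in the high libraries, against 540.0, 817 and 903 CPM in the low libraries. Aldoa, a glycolytic enzyme of most tissues, had 1829.97, 1949 and 2093 CPM in the high libraries, against 1298, 1548 and 1645 CPM in the low libraries. For Aldoa the sets stand close together without overlap, at a log2 ratio of 0.35.

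Of the 26 genes of fatty acid uptake and oxidation, all tested, 22 were higher without overlap and 4 overlapped (Etfb, Echs1, Etfa and Acot2), with a median log2 ratio of 1.57. Lpl, the lipase that frees fatty acids at the capillary wall, had 1839, 2386 and 2691 CPM in the high libraries, against 182, 274 and 348 CPM in the low libraries. Cd36, the fatty acid transporter, had 1049, 1409.9 and 1638 CPM in the high libraries, against 101, 167 and 223 CPM in the low libraries. Hadha, an enzyme of the beta-oxidation cycle, had 895, 1085 and 1296 CPM in the high libraries, against 246, 308 and 358 CPM in the low libraries. Acsl1, which activates fatty acids, had 678, 885 and 969 CPM in the high libraries, against 118, 306 and 379 CPM in the low libraries. Lpl and Cd36 had log2 ratios of 3.15 and 3.09, and Hadha and Acsl1, which the Vav libraries also held at 138 to 169 and 54.8 to 93.6 CPM, had 1.85 and 1.57.

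Among 30 genes of the citrate cycle and respiratory chain, 24 were higher and 1 lower without overlap, with a median of 0.99. Ogdh, the oxoglutarate dehydrogenase, had 1132, 1320.5 and 1587 CPM in the high libraries, against 500.3, 548 and 622 CPM in the low libraries. Mdh1, the cytosolic malate dehydrogenase, had 1070.4, 1282 and 1385 CPM in the high libraries, against 506, 603 and 684 CPM in the low libraries. The 1 lower gene was Mdh2, the mitochondrial malate dehydrogenase, with 559, 650.3 and 848 CPM in the high libraries, against 886, 1266 and 1423 CPM in the low libraries. Thus 2 enzymes of the same reaction in different compartments differed in sign. Genes of the mitochondrial genome took 4.96% to 6.74% of the counts in the high and 1.31% to 1.94% in the low libraries. Of 13 such genes 8 were tested and 7 were higher without overlap (median 1.33). Of the others, mt-Co2, mt-Atp8 and mt-Nd4l had no count in any of the 12 libraries, and mt-Atp6 and mt-Co3 did not pass the filter. The counts of this genome are thus incomplete, and the reason was not tested. mt-Co1, a subunit of cytochrome oxidase, had 23322, 29829.7 and 35032 CPM in the high libraries, against 3427, 4613 and 6033 CPM in the low libraries, whereas mt-Cytb, of complex III, had 4539, 4739 and 4895 CPM in the high libraries, against 2468, 2984 and 3591 CPM in the low libraries. The log2 ratio was 2.65 for mt-Co1 and 0.65 for mt-Cytb.

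**Figure D2:**
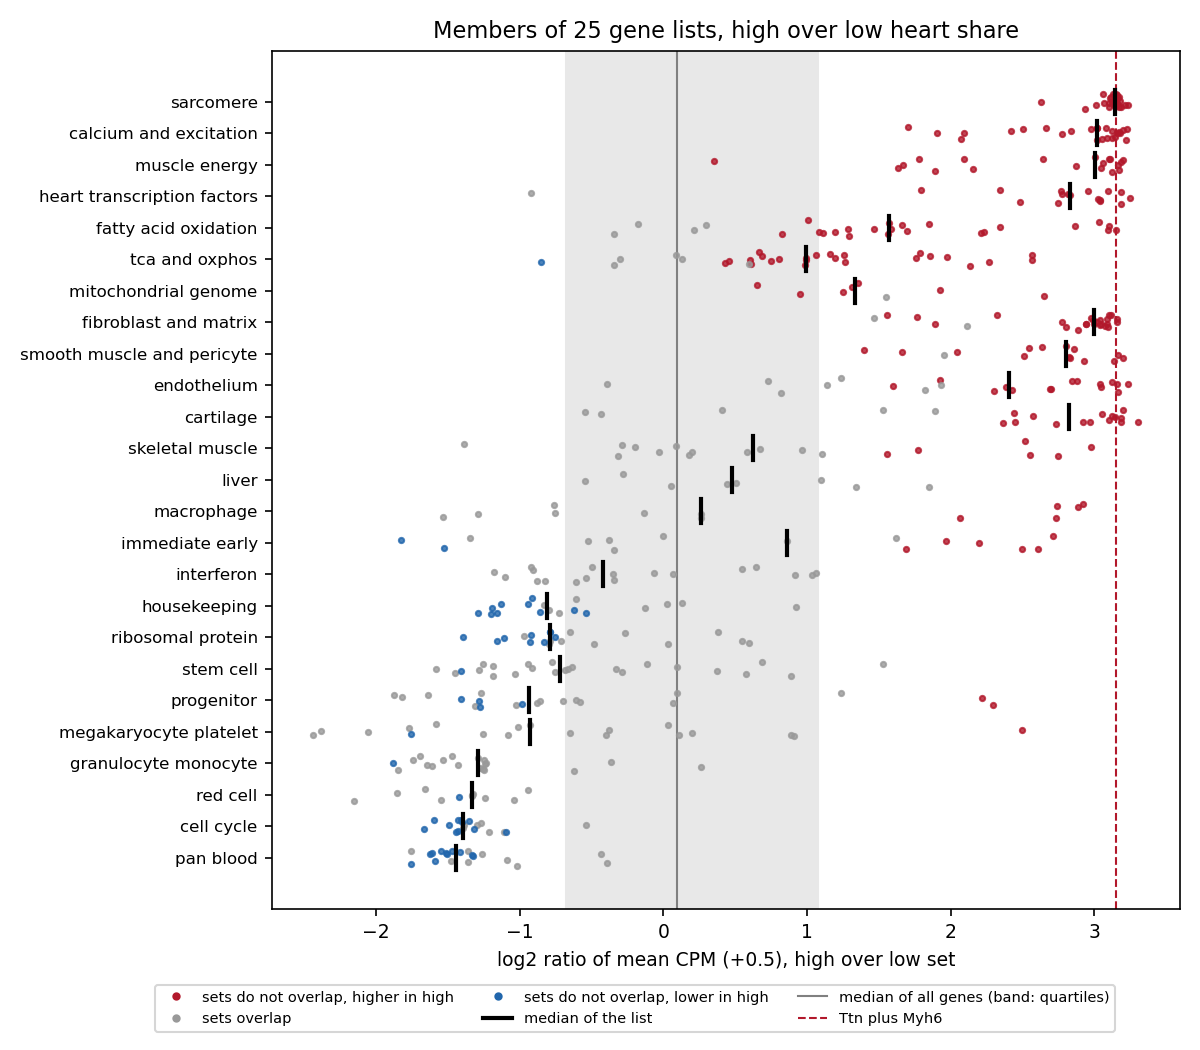
Log2 ratio of mean CPM (plus 0.5), high over low set, for the tested members of 25 gene lists; red and blue points are genes whose sets do not overlap (red higher, blue lower in the high set), grey points overlap, and black bars are list medians. Sarcomere, calcium, muscle energy and fibroblast lists have medians of 3.15, 3.02, 3.00 and 3.00, near the dashed line of Ttn plus Myh6 at 3.15, and the pan blood list has a median of -1.44; the grey line is the median of all genes, 0.10.

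Fibroblast and matrix genes had log2 ratios close to those of the muscle genes. All 26 were tested, 24 were higher without overlap, and the median log2 ratio was 3.00; Tcf21 and Fstl1 overlapped. Col3a1, the collagen III chain of soft tissue, had 1103, 1435 and 1549.9 CPM in the high libraries, against 99.8, 168 and 229 CPM in the low libraries. Col1a2, a collagen I chain, had 691, 913 and 1039 CPM in the high libraries, against 61.1, 104 and 142 CPM in the low libraries. Fn1, fibronectin, had 1078, 1454 and 1564 CPM in the high libraries, against 111, 159 and 227 CPM in the low libraries. Gsn, gelsolin, which severs actin and is also made by blood cells, had 1032, 1282 and 1549 CPM in the high libraries, against 137, 363 and 551 CPM in the low libraries. The first 3 kept a near fixed ratio to the heart genes: Col1a2 had, per 1000 counts of Ttn plus Myh6, 20.7 to 22.1 in the high and 20.3 to 22.02 in the low libraries. The summed level of the list was 6925 to 9951 CPM in the high and 906 to 1807 CPM in the low libraries.

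Vessel genes followed too. Of 15 genes of smooth muscle and pericytes, 14 were higher without overlap and Lmod1 overlapped, with a median log2 ratio of 2.80. Rgs5, a pericyte regulator of G proteins, had 459, 624 and 801 CPM in the high libraries, against 37.4, 71.05 and 98.3 CPM in the low libraries. Abcc9, the regulatory subunit of a potassium channel of pericytes and heart muscle, had 347, 440.03 and 497 CPM in the high libraries, against 29.6, 44.6 and 79.5 CPM in the low libraries. Cspg4, the NG2 proteoglycan, had 104, 135 and 195 CPM in the high libraries, against 9.97, 14.96 and 18.8 CPM in the low libraries. Pdgfrb, the PDGF receptor of mural cells, had 54.7, 84.97 and 106 CPM in the high libraries, against 19.2, 29.5 and 51.4 CPM in the low libraries. Of 22 endothelial genes, 15 were higher without overlap and 7 overlapped, with a median of 2.41. Kdr, the main VEGF receptor, had 149.7, 208 and 233 CPM in the high libraries, against 16.3, 24.8 and 31.4 CPM in the low libraries. Cav1, the coat protein of caveolae, had 145, 189 and 228 CPM in the high libraries, against 12.4, 19.4 and 35.9 CPM in the low libraries. Fabp4, the fatty acid carrier of capillary endothelium and fat, had 139, 182 and 219.8 CPM in the high libraries, against 13.6, 17.8 and 25.97 CPM in the low libraries. Aqp1, a water channel that red cells share, had 223, 309 and 346 CPM in the high libraries, against 33.1, 60.6 and 141 CPM in the low libraries. Of 12 endothelial genes that blood stem cells share, Eng and Pecam1 were higher, Lyl1 was lower and 9 overlapped, with a median of 0.21. These counts are near the shares of all genes tested, 16.5% higher and 9.67% lower without overlap. Pecam1, the platelet endothelial adhesion molecule, had 125, 139 and 183 CPM in the high libraries, against 78.4, 99.2 and 113 CPM in the low libraries, and Cd34 had 148, 184 and 189.9 CPM in the high libraries, against 137, 353 and 417 CPM in the low libraries, with overlap.

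Lining and minor cells of the heart gave lower and less even counts. The share of all genes tested that was higher without overlap was 16.5%. Of 8 genes of endocardium and lymphatic vessels, 6 were tested and Flt4, Lyve1, Npr3, Prox1 and Reln were higher without overlap. Npr3, a natriuretic peptide receptor, had 20.2, 28.3 and 32.5 CPM in the high libraries, against 1.74, 2.38 and 3.95 CPM in the low libraries, and Prox1, the factor of lymphatic fate that heart muscle also makes, had 46.9, 72.7 and 97.3 CPM in the high libraries, against 3.81, 7.80 and 10.7 CPM in the low libraries. Of 8 epicardial genes Wt1 and Krt8 were higher without overlap and 6 overlapped. Their summed level overlapped too, with 24.7 to 58.4 CPM in the high and 3.92 to 176.7 CPM in the low libraries. Wt1, the factor of the epicardial sheet, had 5.79, 7.73 and 10.6 CPM in the high libraries. In the low libraries Wt1 had 0.775, 0.923 and 2.01 CPM. Among 7 tested fat cell genes of 10 listed, Plin4 and Scd1 were higher: Plin4, a lipid droplet protein of fat and heart, had 108, 146 and 179 CPM in the high libraries, against 11.96, 19.7 and 27.4 CPM in the low libraries, while Adipoq, the fat cell hormone, had 0, 0.348 and 9.003 CPM in the high libraries, against 0, 0 and 18.95 CPM in the low libraries, with overlap. Of 12 macrophage genes 5 were higher without overlap, the complement genes C1qa, C1qb and C1qc, Folr2 and Mrc1. The other 7 overlapped, among them Cd68, Adgre1, Csf1r and Cx3cr1. The median log2 ratio was 0.26, and 5 of the 12 ratios were below 0. The summed level of the list overlapped, with 553 to 1716 CPM in the high and 270 to 4020 CPM in the low libraries. Mrc1, the mannose receptor of resident macrophages, had 41.9, 56.8 and 63.5 CPM in the high libraries, against 3.09, 5.09 and 18.9 CPM in the low libraries, whereas Lyz2, which granulocytes share, had 156, 699 and 1226 CPM in the high libraries, against 180.3, 2598 and 3173 CPM in the low libraries.

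Liver, kidney and nerve genes were low in both sets. Over all genes tested, 16.5% were higher and 9.67% lower without overlap. The summed level of 8 tested liver genes of 12 listed was 11.6 to 23.97 CPM in the high and 5.22 to 18.1 CPM in the low libraries, and none of the 8 was without overlap. The sum over the kidney list was 2.65 to 12.9 CPM in the high and 3.86 to 10.97 CPM in the low libraries, with 0 of 5 tested genes without overlap. None of the 8 tested nerve and Schwann cell genes of 10 listed was without overlap, and their sum was 15.6 to 67.9 CPM in the high and 12.1 to 56.03 CPM in the low libraries. The skeletal muscle list, 18 tested of 23, had 6 higher genes and a median of 0.63; Neb, nebulin, had 13.2, 14.6 and 20.7 CPM in the high libraries, against 1.30, 4.53 and 6.21 CPM in the low libraries, and the fast skeletal light chain Mylpf had 3.07, 7.98 and 15.9 CPM in the high libraries, against 7.38, 12.7 and 61.4 CPM in the low libraries, with overlap. The fast skeletal myosin Myh4 had at most 1.42 CPM in the high and 0.997 CPM in the low libraries. In the lung list, 7 tested of 10, Cbr2 was the 1 higher gene, with 7.54 to 12.9 CPM in the high and 0.665 to 2.65 CPM in the low libraries. The sum over the lung list was 63.3 to 110.3 CPM in the high and 132 to 312 CPM in the low libraries. Napsa, a protease of lung and of blood cells, was the 1 lower gene, with 49.2 to 90.3 CPM in the high and 126 to 303 CPM in the low libraries. Of 8 marrow stroma genes tested of 10, Alpl, Cxcl12, Ebf3, Foxc1 and Kitl were higher. Cxcl12, the niche chemokine that vessels and fibroblasts also make, had 110.1, 152 and 184 CPM in the high libraries, against 10.3, 20.1 and 85.4 CPM in the low libraries, and Kitl, the ligand of Kit, had 56.8, 71.5 and 89.7 CPM in the high libraries, against 5.89, 9.25 and 16.7 CPM in the low libraries.

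A stricter description is the ratio of a gene's counts to those of Ttn plus Myh6. Of 10286 genes with at least 20 counts in all 12 libraries, 328 kept that ratio within 1.5-fold of its median in every library, and 219 of these are in no list. Ttn and Myh6 are among the 328 by construction, since they form the ratio and chose the sets. The other 326 took 9.92% to 15.1% of the counts of a high library and 0.919% to 2.03% of a low library. By list, 25 of the 28 sarcomere genes besides Ttn and Myh6 were among them, 16 of 22 calcium and excitation genes with enough counts, 10 of 19 muscle energy genes, 12 of 24 fibroblast genes, 7 of 18 endothelial genes, 6 of 11 smooth muscle and pericyte genes, 3 of 24 fatty acid genes and 0 of 30 citrate cycle and respiratory chain genes. None of the 20 pan blood, 18 cell cycle or 21 stem cell genes with enough counts was among them. At the share of 328 in 10286 genes, lists of this size would hold few or none. These counts of 0, that of the citrate cycle list included, thus do not set the lists apart from all genes. Of the 328 genes, 235 matched a RefSeq promoter, with 318 windows: 15 (4.72%) held a CArG match, 26 (8.18%) a MEF2 match and 44 (13.8%) a TATAAA match, beside the shares of all windows given with the sequences above. Among other lists, the fibroblast genes (23 windows) had 0 windows with a CArG match and 0 with a MEF2 match. The cell cycle genes (16 windows) had 1 window with each (6.25%), and the pan blood genes (22 windows) had 0 with a CArG match and 1 with a MEF2 match (4.55%).

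Outside the lists, the 12 genes with the highest mean among those at least 8-fold higher without overlap included Pde4dip, Ahnak, Dsp, Srl, Hspb7, Nrap, Eef1a2, Hspg2, Txlnb, Kif1c and Asb2, with log2 ratios of 3.06 to 3.20. Dsp, desmoplakin of the cell junctions that hold heart muscle cells together, had 956, 1176 and 1394 CPM in the high libraries, against 94.9, 141 and 191 CPM in the low libraries. Nrap, a protein of growing myofibrils, had 532, 717 and 894 CPM in the high libraries, against 49.7, 82.5 and 108 CPM in the low libraries. Hspg2, perlecan of the basement membrane, had 453, 644 and 714 CPM in the high libraries, against 48.6, 70.5 and 108 CPM in the low libraries. Eef1a2, the elongation factor form of muscle and nerve, had 481, 622 and 757 CPM in the high libraries, against 44.1, 73.9 and 93.2 CPM in the low libraries.

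A further pair of groups followed the heart share with no link to heart muscle in their names; both were chosen after their values were seen. Of 20 cartilage genes, 15 were higher without overlap, against 16.5% of all genes tested, with a median log2 ratio of 2.83. The other 5, Prg4, Cytl1, Sox6, Chad and Matn3, overlapped, and 2 of the 20 ratios were below 0. At least 20 counts in all 12 libraries were reached by 10 of the 20 genes. Col2a1, the main collagen of cartilage, had 2119, 2787 and 3179.6 CPM in the high libraries, against 197, 319.9 and 432 CPM in the low libraries, and at most 0.551 CPM in the Vav libraries. Per length its median was 464 RPKM in the high libraries, above the 146 RPKM of Col3a1. Col11a1, Col11a2 and Col9a1, its fibril partners, had log2 ratios of 3.19, 3.19 and 3.06. Acan, the aggrecan core protein, had 157, 232 and 273 CPM in the high libraries, against 13.1, 25.7 and 35.9 CPM in the low libraries. Per 1000 counts of Ttn plus Myh6, Col2a1 had 60.8 to 69.04 in the high and 62.7 to 69.5 in the low libraries. The other group is RNAs that carry no poly(A) tail. Rn7sk, the 7SK RNA that holds back transcription elongation, had 1166, 1496 and 1735 CPM in the high libraries, against 100.1, 173 and 239.9 CPM in the low libraries. Rpph1, the RNA of ribonuclease P, had 744, 959 and 1216 CPM in the high libraries, against 60.1, 114 and 155 CPM in the low libraries. Rmrp, the RNA of ribonuclease MRP, had 35.8, 45.9 and 58.2 CPM in the high libraries, against 2.33, 6.81 and 8.53 CPM in the low libraries. In the Vav libraries Rn7sk had at most 2.23 CPM and Rpph1 at most 3.13 CPM. Rn7sk had, per 1000 counts of Ttn plus Myh6, 33.8 to 36.5 in the high and 34.9 to 37.3 in the low libraries.

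**Figure D3:**
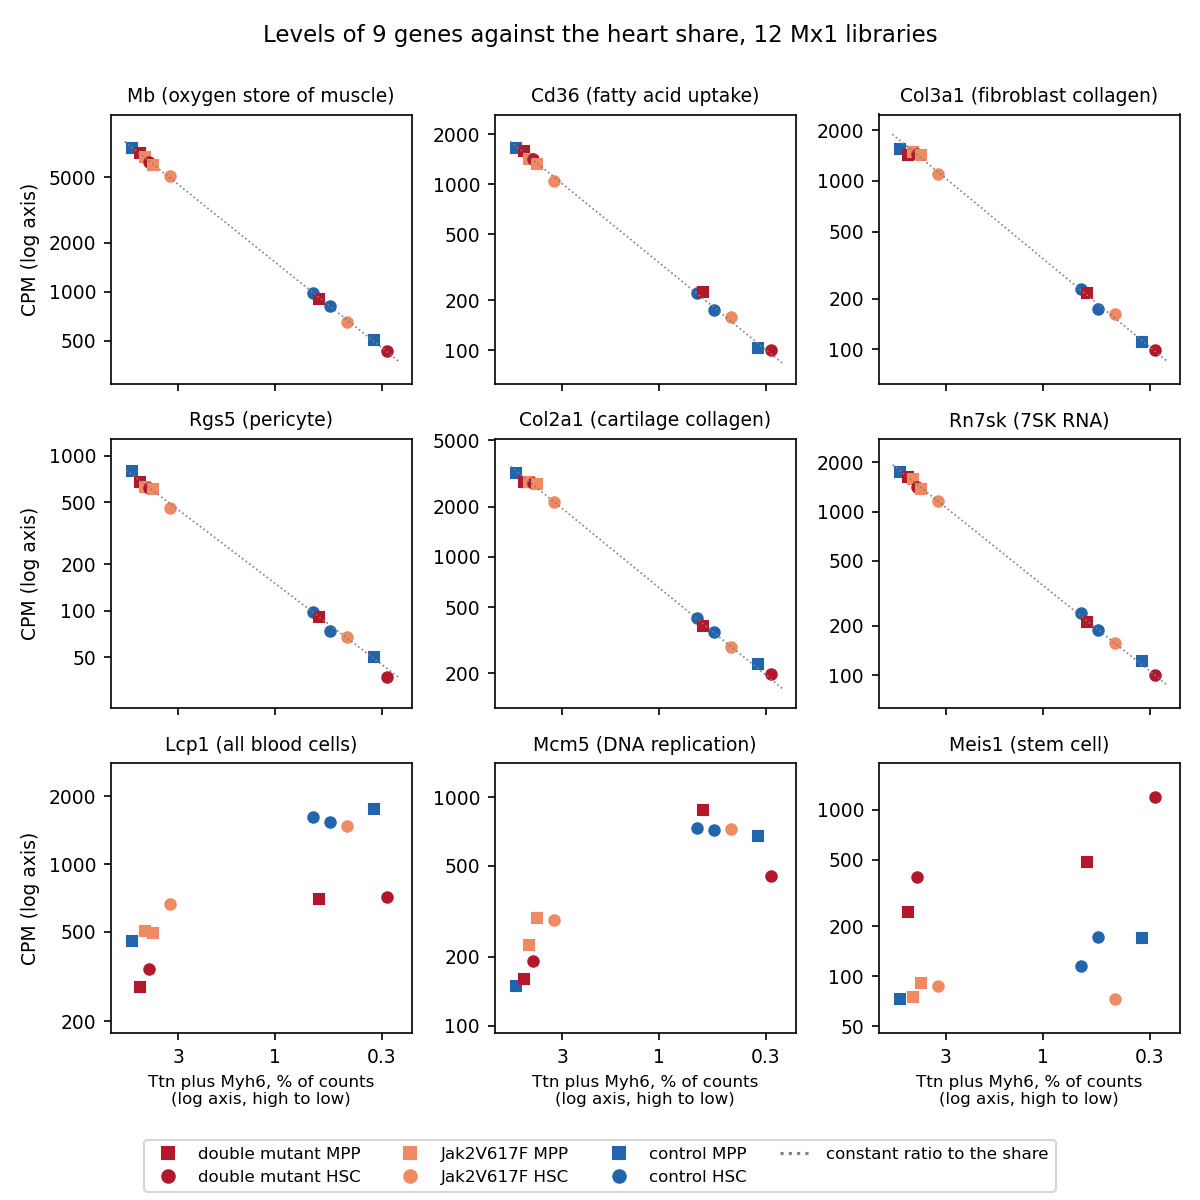
CPM of 9 genes against the percent of counts in Ttn plus Myh6 (both axes log, share falling to the right) in the 12 Mx1 libraries, coloured by genotype, squares MPP and circles HSC; the dotted line is a constant ratio to the share. Mb, Cd36, Col3a1, Rgs5, Col2a1 and Rn7sk lie along the line in both sets, Lcp1 and Mcm5 are lower in the high libraries, and Meis1 separates by genotype within each set.

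Sex-linked genes split in 2 ways. Ddx3y, Uty, Kdm5d and Eif2s3y, which lie on the Y chromosome, were all higher without overlap, and their summed level was 169.9 to 229 CPM in the high and 16.1 to 33.1 CPM in the low libraries. Per 1000 counts of Ttn plus Myh6 they had 4.46 to 5.15 in the high and 4.43 to 5.90 in the low libraries, so the sets overlap in that ratio. Ddx3y, a helicase, had 78.5, 92.2 and 116 CPM in the high libraries, against 7.24, 10.6 and 16.6 CPM in the low libraries. Xist, the RNA that silences an X chromosome in female cells, was lower without overlap, with 137, 161 and 202 CPM in the high libraries, against 306, 341 and 509.6 CPM in the low libraries. The Vav libraries had 80.3 to 341 CPM of the 4 Y genes. The pools held both sexes, and the share of each sex in the RNA of a library was not tested.

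**Figure D4:**
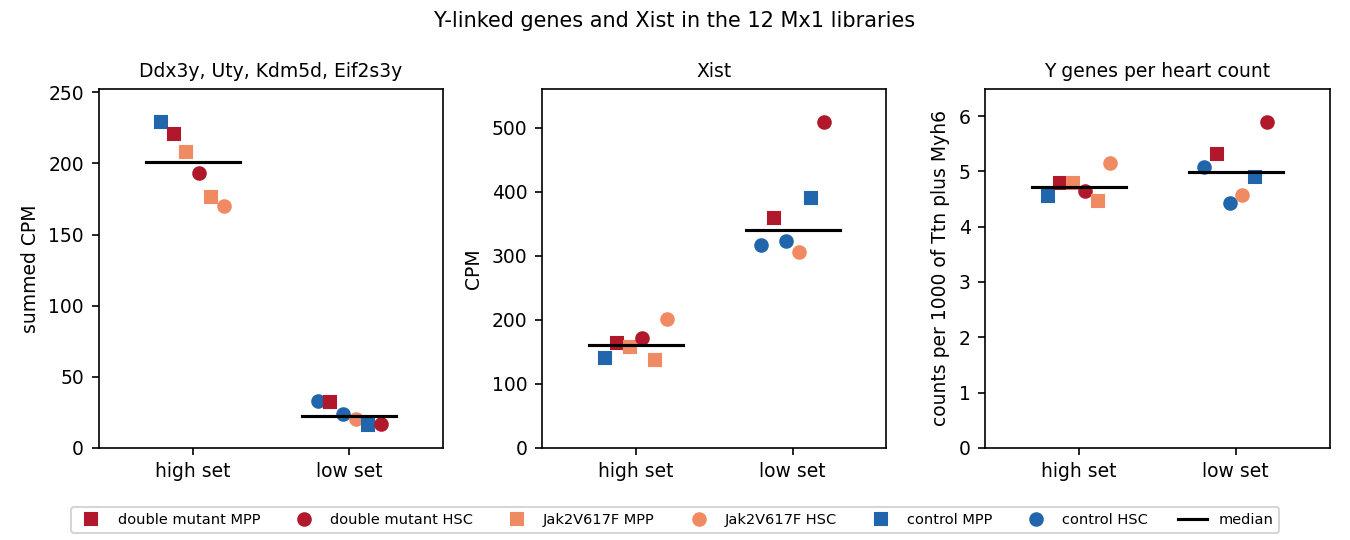
Summed CPM of 4 Y-linked genes, CPM of Xist, and Y-linked counts per 1000 counts of Ttn plus Myh6, in the 6 high libraries (left in each panel) and the 6 low libraries (right), with a black line at the median of each set. The Y genes span 169.9 to 229 CPM in the high and 16.1 to 33.1 CPM in the low set, Xist is lower in the high set, and the ratio in the right panel spans 4.46 to 5.15 in the high and 4.43 to 5.90 in the low set.

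Blood genes had lower CPM in the high libraries, where 9.67% of all genes tested were lower without overlap. CPM is a share of all counts of a library, so a larger share of any RNA lowers the CPM of the rest by construction. In bulk RNA, fewer cells of a type and less RNA per cell cannot be told apart. Of 20 genes used by all blood cells, 11 were lower without overlap and 0 higher, with a median log2 ratio of -1.44. Lcp1, the actin bundling protein of white cells, had 283, 474 and 664 CPM in the high libraries, against 701, 1507 and 1751 CPM in the low libraries. Fermt3, the integrin activator kindlin-3, had 151, 261 and 332 CPM in the high libraries, against 583, 843 and 1207 CPM in the low libraries. Rac2, a GTPase of blood cells, had 242, 409 and 699 CPM in the high libraries, against 668, 1674 and 1971 CPM in the low libraries, with overlap, and Arhgdib, an inhibitor of such GTPases, had 536, 897 and 1428 CPM in the high libraries, against 1018, 2996 and 3630.5 CPM in the low libraries, also with overlap. With the heart muscle lists left out of the library total, the median of the pan blood list was -1.28, and that of all genes 0.23. Other RNA that was higher in the high libraries, such as that of fibroblast and cartilage genes, stayed in this total. Only part of the lowering by construction is thus taken out.

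Genes of dividing cells were lower as well. Of 18 cell cycle genes 11 were lower without overlap and 0 higher, with a median of -1.39. Mcm5 and Mcm3, helicase subunits of DNA replication, had log2 ratios of -1.67 and -1.60. Mcm5 had 148, 209 and 297 CPM in the high libraries, against 453, 721 and 877 CPM in the low libraries. Top2a, the topoisomerase of dividing cells, had 254, 433 and 728 CPM in the high libraries, against 695, 1111 and 1271 CPM in the low libraries, with overlap. Of 20 ribosomal protein genes 9 were lower without overlap (median -0.79), and of 18 housekeeping genes 10 (median -0.81). Rpl4, of the large ribosomal subunit, had 1019, 1679 and 1967 CPM in the high libraries, against 3044, 3425 and 4118 CPM in the low libraries. Tubb5, a beta tubulin, had 1522, 2025 and 2863 CPM in the high libraries, against 4122, 4511 and 6731 CPM in the low libraries. Hsp90ab1, a heat shock chaperone, had 1220.3, 1633 and 2102 CPM in the high libraries, against 3285, 3519.5 and 4146 CPM in the low libraries. Actb had 7546, 11249 and 13518 CPM in the high libraries, against 13086, 18422 and 26549 CPM in the low libraries, so the highest high library overlaps the lowest low library. Outside the lists, the 12 genes with the highest mean in the low libraries among those at least 2-fold lower without overlap were Tmbim6, Hnrnpa2b1, Fth1, Eif5a, Ywhae, Gpx1, Tkt, Cct5, Dazap2, Ly6e, Tacc1 and H3f3b. Their log2 ratios were -1.52 to -1.01. Tkt, the transketolase of the pentose phosphate path, had 255, 424 and 757 CPM in the high libraries, against 937, 1405 and 1614 CPM in the low libraries. Eif5a, a translation factor, had 527, 715 and 935 CPM in the high libraries, against 1679, 1846 and 1953 CPM in the low libraries.

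Genes of blood lineages had medians below 0 and mostly overlapped between the sets, and several also differed between genotypes. Over all genes tested, 9.67% were lower without overlap, a share that the stem cell and granulocyte counts do not exceed. Without the low double mutant HSC replicate 2 the median log2 ratio of the stem cell, megakaryocyte and interferon lists was 0.08, 0.016 and 0.0079, and without the low double mutant MPP replicate 2 that of the red cell list was -0.15, against -1.33 with it. Of 24 stem cell genes 1, Kit, was lower without overlap and 23 overlapped (median -0.72). Meis1, a homeobox factor of stem cells, had 241 and 396 CPM in the high double mutant libraries, against 486 and 1183 CPM in the low double mutant MPP and HSC libraries. In the high control and Jak2V617F libraries Meis1 had 73.01 to 90.8 CPM, against 73.2 to 172 CPM in the low ones. Of 19 granulocyte and monocyte genes Csf3r was lower and 18 overlapped (median -1.29). Ngp, a neutrophil granule protein, had 5842 to 9369 CPM in the 4 high control and Jak2V617F libraries, against 21177 to 27938 CPM in the 4 low ones, which do not overlap, and 452 to 1707 CPM in the 4 double mutant libraries. Mpo, whose promoter is shown above, had 3391 to 6113 CPM in the 4 high control and Jak2V617F libraries, against 9756 to 17224 CPM in the 4 low ones. The granulocyte list thus made up to 86258 CPM of a low control library labelled HSC. The Vav control HSC libraries held 1378 to 4044 CPM of it, and the Vav libraries of both cell types and genotypes 1378 to 25387 CPM.

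Other lineage lists gave few genes without overlap. Over all genes tested, 16.5% were higher and 9.67% lower without overlap. The counts of the megakaryocyte, red cell, lymphoid priming and interferon lists do not exceed these shares. Among 20 progenitor genes Kit, Myb, Lyl1 and Runx1 were lower, Tcf15 and Zfpm1 were higher and 14 overlapped (median -0.93). Cdk6, a cell cycle kinase of progenitors, had 260.2, 640.2 and 785 CPM in the high libraries, against 494, 1411 and 2278 CPM in the low libraries. Of 19 megakaryocyte and platelet genes Gp1ba was lower, Thbs1 was higher and 17 overlapped. Thbs1, thrombospondin, which heart and vessel cells also make, had 122, 152 and 173 CPM in the high libraries, against 13.3, 24.6 and 45.9 CPM in the low libraries. Of 11 red cell genes tested of 12, Epor was lower and 10 overlapped; Car2, a carbonic anhydrase, had 1475, 3545 and 4436 CPM in the high libraries, against 3863, 4530.0 and 19283 CPM in the low libraries. Of 16 lymphoid priming genes Lsp1 was lower and Notch1 higher, and Flt3, the receptor of early lymphoid progenitors, had 18.9, 24.3 and 48.7 CPM in the high libraries, against 47.1, 101 and 181 CPM in the low libraries. Of 14 lymphocyte genes tested of 15, Lck and Cd79b were lower; Cd79b, a chain of the B cell receptor complex, had 14.3, 28.1 and 38 CPM in the high libraries, against 48.3, 73.7 and 87.2 CPM in the low libraries. None of the 18 interferon genes was without overlap. Of 15 immediate early genes, which cells switch on within minutes of a stimulus, 6 were higher and 2, Fosb and Zfp36, were lower. Zfp36, which shortens the life of inflammatory mRNAs, had 33.9, 66.9 and 94.97 CPM in the high libraries, against 164, 187 and 230.3 CPM in the low libraries, and Jun had 58.4, 76.2 and 85.8 CPM in the high libraries, against 29.6, 39.4 and 60.5 CPM in the low libraries, with overlap. Of 5 nuclear RNAs tested of 6, 2 were higher: Malat1 had 6456, 8119.9 and 9301 CPM in the high libraries, against 2584, 4499 and 5935 CPM in the low libraries, and Neat1 had 377, 412 and 498 CPM in the high libraries, against 157, 205 and 360.3 CPM in the low libraries.

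**Figure D5:**
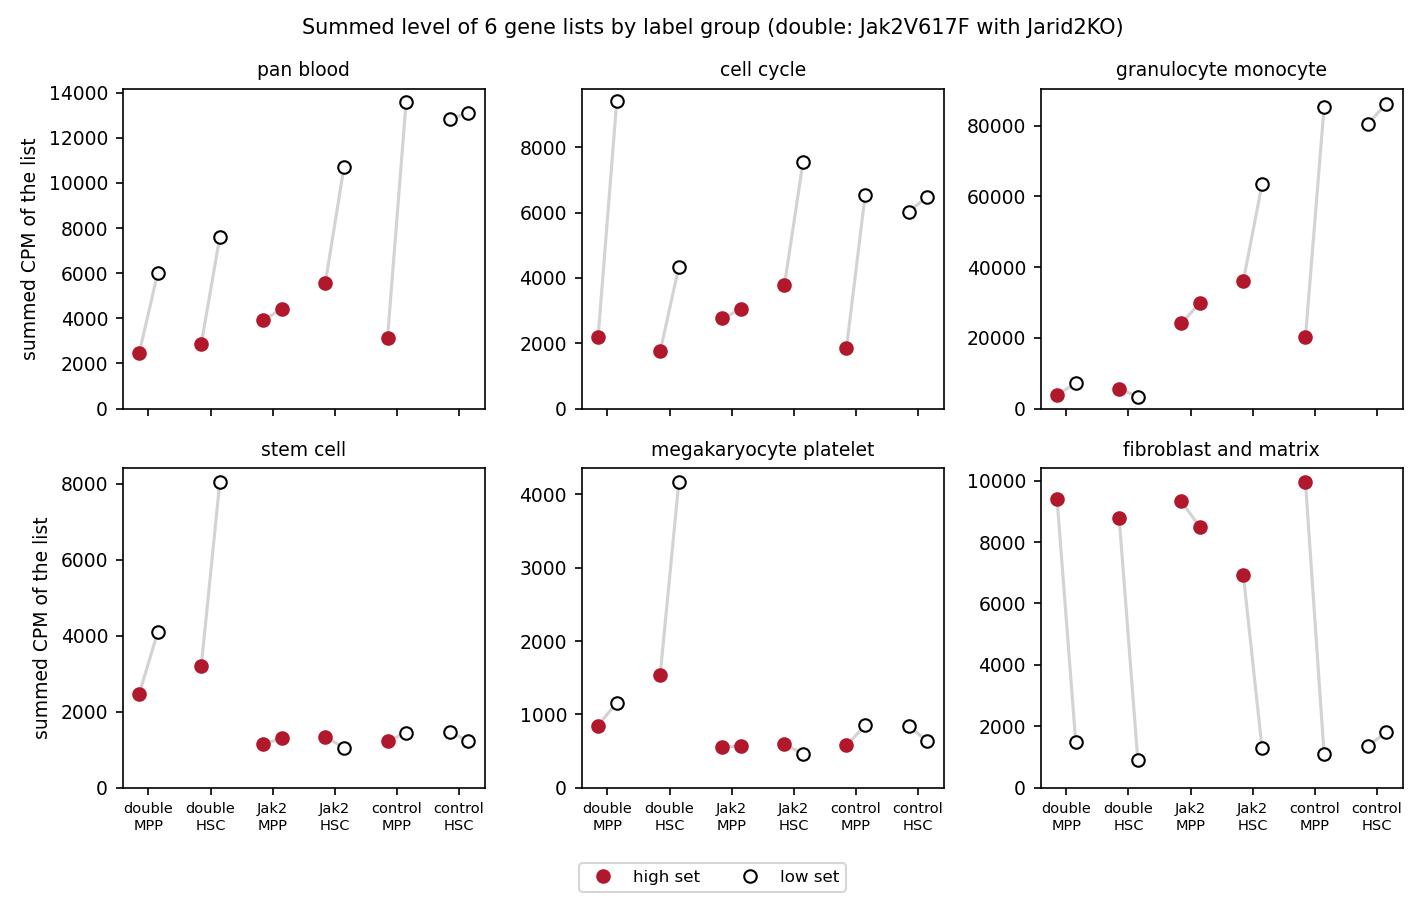
Summed CPM of 6 gene lists in each of the 12 Mx1 libraries by label group, filled points for the high and open points for the low set, with the 2 libraries of a group joined by a line. Pan blood and cell cycle sums are lower in the high library of each of the 4 mixed groups, the fibroblast sum is higher, and stem cell and granulocyte sums differ more between genotypes, with granulocyte sums of 3296 to 7107 CPM in the double mutant.

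Within the 4 label groups with 1 library of each set, genotype and cell type are the same on both sides, with no replicate. The share of Ttn plus Myh6 differed 15.3-fold between the control MPP libraries, 14.7-fold between the double mutant HSC, 7.56-fold between the double mutant MPP and 7.42-fold between the Jak2V617F HSC libraries, or 3.94, 3.88, 2.92 and 2.89 on the log2 scale. The fibroblast list had medians of 3.68, 3.57, 2.68 and 2.81 in the same order, and the muscle energy list 3.78, 3.51, 2.70 and 2.68. Both lists thus have the larger ratios in the 2 groups whose heart share differs more. Rn7sk had log2 ratios of 3.82, 3.81, 2.93 and 2.89. The pan blood list had medians of -1.98, -1.36, -1.26 and -0.84, and the cell cycle list -1.78, -1.33, -1.99 and -0.96, below 0 in all 4 groups. The granulocyte list had medians of -2.09, 0.73, -0.78 and -0.62, above 0 in the double mutant HSC pair.

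Contrasts between the labels, which did not choose the sets, can be tested on the same 12 libraries. Their p-values rest on the spread between libraries of a label group. In the groups with 1 library of each set, that spread includes a 7.42-fold to 15.3-fold difference in heart share. A contrast with 0 calls thus does not show that the labels are alike. In edgeR's quasi-likelihood test with Benjamini-Hochberg adjustment, MPP against HSC called 0 of 19616 genes (0%), with 684 at an unadjusted p under 0.05. This contrast takes the cell type from the labels, and the control and Jak2V617F libraries labelled HSC had little Slamf1 and much Ngp and Mpo, as given above. Jak2V617F against control also called 0 of 19616 genes (0%), with 625 at an unadjusted p under 0.05. The double mutant against Jak2V617F called 88 genes (0.449%), 23 higher and 65 lower, with 1161 at an unadjusted p under 0.05. This count was not stable when single libraries were left out. Control libraries are not compared in this contrast but share its estimate of the spread. With each library left out in turn and the same 19616 genes tested, it was 0 in 7 of the 12 fits, with 732 to 1132 at an unadjusted p under 0.05. Those 7 fits left out either control HSC library, the Jak2V617F HSC replicate 1, either Jak2V617F MPP library, the double mutant HSC replicate 2 or the double mutant MPP replicate 2. It was 23 without the double mutant MPP replicate 1, 94 without the Jak2V617F HSC replicate 2, 127 without the double mutant HSC replicate 1, and 199 and 214 without the control MPP replicates 1 and 2. The filter applied anew to 11 libraries tested 22256 to 22629 genes and called 22 to 248. In DESeq2 the same 3 contrasts called 0, 7 and 425 genes. None of the 328 genes with a fixed ratio to Ttn plus Myh6, that pair included, was called in any of the 3 contrasts. These genes were chosen to move with that pair, so they amount to 1 measure and not 328. Their fold changes describe which label groups hold the high libraries and are no independent result. Their median log2 fold change was 1.11 for MPP over HSC, against 0.00077 for all genes, with a median SE of 0.81. For Jak2V617F over control it was 1.04, against 0.05 for all genes, with a median SE of 0.99. For the double mutant over Jak2V617F it was -0.24, with a median SE of 0.97. Ttn had a log2 fold change of 1.04 with an SE of 1.03 and an adjusted p = 0.863 for Jak2V617F over control in edgeR's test.

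With a term for the high and low sets in the same edgeR fit, the median SE of the 328 genes was 0.21, 0.26 and 0.24 in these 3 contrasts. Calls were then 0 (0%, with 834 at an unadjusted p under 0.05), 11 (0.0561%) and 786 (4.01%) of 19616 genes. Of the 88 genes called for the double mutant without the term, 74 were among the 786. The biological coefficient of variation was 0.556 with the term and 0.786 without it. The term was itself taken from the counts, so this fit shows how much of the spread goes with the sets and gives no independent test. Among blood genes, the fit without the term called 5 of 24 stem cell genes higher and 8 of 19 granulocyte and monocyte genes lower in the double mutant, and the fit with the term called 15 higher and 14 lower; none of the calls without the term held in the 7 fits above that called 0. Meis1 had a log2 fold change of 2.52 with an SE of 0.49 and an adjusted p = 0.0445 without the term in edgeR and a log2 fold change of 2.15 with an SE of 0.25 and an adjusted p = 7.83e-07 with it. Ngp had a log2 fold change of -3.86 with an SE of 0.77 and an adjusted p = 0.0499 without the term in edgeR and a log2 fold change of -3.89 with an SE of 0.64 and an adjusted p = 0.0282 with it. Of the pan blood list, 1 of 20 genes was called lower without the term and 9 with it. Lcp1 had a log2 fold change of -0.73 with an SE of 0.56 and an adjusted p = 1 without the term in edgeR and a log2 fold change of -1.07 with an SE of 0.22 and an adjusted p = 0.00193 with it. For Jak2V617F over control, 11 genes were called higher with the term and 0 without it, among them the red cell gene Car2, for which edgeR gave a log2 fold change of 1.46 with an SE of 0.26 and an adjusted p = 0.0204 with the term.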

How the data were processed

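The 12 Mx1 RNA-seq libraries were compared, with the 12 Vav libraries as background. The authors deposited for each library a table of raw counts per gene with CPM and RPKM beside them, per the file headers; the CPM and RPKM recomputed from the deposited counts differed by at most 6.2e-11. The submitters' processing notes name STAR 2.0.4, featureCounts 1.4.5 of Subread, HTSeq 0.8.0, Partek 6.6 and mm10, with no order. The tables list 41388 genes, 40254 of them with a symbol; strand of counting is not given in the sources used here, so overlapping and antisense genes are uncertain. cDNA was made with the SMARTer Ultra Low kit, per the labels' protocols.

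Libraries were set high or low at 2% of counts in Ttn plus Myh6. The 19616 genes tested passed edgeR's filterByExpr (count minimum 10, total minimum 15). CPM of high and low libraries were described by mean, range and log2 ratio (pseudocount 0.5, which understates ratios of low genes), with no test. A gene was higher or lower without overlap when all 6 high libraries lay on 1 side of all 6 low libraries. Label contrasts used edgeR 4.0.16 quasi-likelihood fits over all 12 libraries with 1 mean for each of the 6 label groups, Benjamini-Hochberg adjustment and an adjusted p under 0.05; DESeq2 1.42.0 was an alternative. They ran in R 4.3.3 with limma 3.58.1, and the rest in Python 3.11.15 with numpy 2.4.6, pandas 2.3.3, scipy 1.17.1 and matplotlib 3.10.9. The fits were tested on simulated data, whose settings and outcome are not given here, so nothing is concluded from that run. The alternatives are other scalings, filters and pseudocounts, a 5% line, a single cell type, a replicate block, a term for the sets, and each library left out in turn.

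The sets and the 39 gene lists were chosen with earlier results of these data known, and 2 more lists (cartilage and RNAs without a poly(A) tail) after their values were seen. Genes named are Ttn, Myh6, the 4 of highest mean CPM in each list, the genes of the sort and the alleles, and outside the lists the 12 of highest mean at least 8-fold higher and the 12 at least 2-fold lower without overlap. Mybpc3, Myl7, Sln, Myh4, Cd48, Gata4, Nkx2-5, Tbx20, Acan, Kdm5d, genes given as exceptions or as members of small counts, and those without a poly(A) tail were named after their values were seen. Promoters came from RefSeq, build GRCm38.p6. A few genes that this rule names are not reported here. The 8 ChIP-seq samples of the series were not analysed here.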

Additional observations from a re-analysis of the deposited data

Results flagged for a closer look

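Summed CPM of each of the 41 lists, and the share of Ttn plus Myh6, were examined within the 6 high and the 6 low libraries for a library far from the rest, by Dixon's gap rule at its usual critical value. This was met 8 times in 84 sets, where chance flags about 1 in 20 groups. The megakaryocyte and platelet genes reached 1539 CPM in the double mutant HSC replicate 1 of the high set, where the next library had 849.2 CPM. In the low set they reached 4172 CPM in the double mutant HSC replicate 2, where the next had 1161 CPM. Heart transcription factors summed to 982.1 CPM in the same low library, with the next at 493 CPM; Mef2c, which blood cells share, is a member of that list. Endothelial genes shared with stem cells summed to 1232 CPM in the double mutant HSC replicate 1 of the high set, with the next at 961.8 CPM. Nerve and Schwann cell genes summed to 67.95 CPM in the double mutant MPP replicate 1 of the high set, with the next at 32.58 CPM. In the low set they summed to 56.03 CPM in the double mutant MPP replicate 2, with the next at 25.14 CPM. The kidney list was lowest in the double mutant MPP replicate 1 of the high set, at 2.654 CPM with the next at 10.57 CPM. Sex-linked genes were lowest in the Jak2V617F MPP replicate 2 of the high set, at 315.1 CPM with the next at 366.3 CPM. Of these 8 values, 7 belong to a double mutant library.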

How the results depend on the processing

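Genes without overlap numbered 3245 higher and 1896 lower. With HSC libraries alone they were 4899 and 2959, and with MPP libraries alone 4910 and 4108; fewer libraries must be ordered there. TMM scaling gave 3191 and 1955, DESeq2 size factors 3039 and 2347, and a total without heart muscle genes 3585 and 1340; the last shifted the median of all genes to 0.229. Without each library in turn the counts were 3298 to 3563 and 1918 to 2275. A 5% line leaves 1 high library against 11, puts 5 libraries rich in heart RNA on the other side, and gave 2630 and 2343. It moved 25 of 42 medians, that of all genes included: sarcomere to 1.26, fibroblast to 1.125, endothelium to 0.944 and cartilage to 1.079, and it turned nerve to -1.205 and liver to -0.783. A pseudocount of 2 moved 11 medians, among them atrial to 1.725, skeletal muscle to 0.352, epicardium to 0.415 and fat cell to 0.456, and no filter moved atrial to 1.402 and skeletal muscle to 0.312. The medians of the sarcomere, fibroblast, pan blood and cell cycle lists kept their sign without any 1 library. Without the double mutant HSC replicate 2 the megakaryocyte and platelet median was 0.016, against -0.93 with it; without each library in turn it ran from -1.178 to 0.016. The cause was not tested. MPP over HSC called 0 genes and 1 with no filter. Jak2V617F over control called 0, and 9 with no filter, 7 in DESeq2 and 11 with the term for the sets. The double mutant over Jak2V617F called 88, and 365 with no filter, 58 with a minimum of 20 counts, 425 in DESeq2, 786 with the term for the sets, and 22 to 248 without each library in turn, or 0 to 214 (among them 23 and 199) with the 19616 genes kept, a setting chosen after seeing the data; the first 2 contrasts called 0 either way. A label group with 1 library left is there assumed to vary like the others. With a replicate block the calls were 0, 0 and 87. The difference between replicates 1 and 2 was correlated between label groups: 15 correlations ran from -0.543 to 0.523, with a median of 0.0267. In the label groups with 1 library of each set, that difference includes the heart share. The high library is replicate 1 in some of these groups and replicate 2 in others. The correlations thus cannot show whether the numbers pair the libraries. Each list ratio rests on 6 libraries a set, and no value separates dilution from a change per cell.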
